A study of Mus musculus with 16 samples.

Results

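The lysosome and autophagy genes described here are 35 mouse genes picked by symbol, and all 35 were found in the count tables. They comprise 6 lysosomal membrane proteins, 6 proteases, 9 glycosidases and lipid hydrolases, 3 soluble cofactors, 5 proteins of the lysosomal proton pump, and 6 autophagy genes, of which Tfeb encodes a transcription factor that regulates the pathway. All 35 had a mean of 1 CPM or more (CPM are counts scaled to a common library size), the minimum set for testing, which 14004 of the 54658 genes in the tables reached.

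Lysosomes are acidic compartments in which proteins, sugars and lipids are broken down by hydrolases, and the acid is supplied by a proton pump of the membrane, the V-ATPase. Autophagy wraps worn or damaged parts of the cell, mitochondria included, in a double membrane and delivers them to the lysosome. The factor TFEB activates many genes of both processes through short sequences of the E-box type near their start sites. In the brain, inherited loss of single lysosomal proteins causes storage disorders with loss of neurons.

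The cells were C17.2α, mouse neural cells from cerebellum that overexpress the thyroid hormone receptor TRα1. In 1 experiment without the hormone T3, with serum stripped of thyroid hormones, they were kept for 24 h with the solvent DMSO alone or with a strobilurin in DMSO, and the question was how these fungicides change the transcriptome. Strobilurins block complex III of the mitochondrial respiratory chain of fungi. For azoxystrobin the labels give 100 and 1000 nM, and for each of picoxystrobin, pyraclostrobin and trifloxystrobin 30, 100, 300 and 1000 nM, with 1 RNA-seq library for each concentration and 2 for DMSO. All groups therefore share the cell line, the receptor overexpression, the solvent and the absence of T3, and a single engineered line limits what the groups stand for. Since no concentration was repeated, the libraries of a compound at different concentrations stood in for replicates, and their spread also holds any concentration response. Nothing says that the libraries came from separate cultures, and p-values measure only the spread between these libraries.

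The library labelled azoxystrobin at 100 nM held the same count as DMSO replicate 2 for every gene. It was left out, and which label those counts belong to cannot be told apart. The other 15 libraries had total counts of 12292390 to 18188099. Picoxystrobin at 1000 nM stood apart from the other libraries of its compound, and results that rest on it are given with and without it. Of the cell type markers, 4 of 5 neural progenitor genes (Nes, Vim, Sox2 and Msi1) and 4 of 4 oligodendrocyte genes had a mean of 1 CPM or more, against 0 of 3 astrocyte genes and 1 of 4 neuron genes. Among the markers of microglia and macrophages, cells rich in lysosomes, 0 of 7 reached 1 CPM, and Itgam, Ptprc and C1qa were at 0 in every library. Their summed level was 0.0618 to 0.531 CPM in DMSO and 0.0729 to 0.521 CPM in exposed cells. Fibroblast markers reached that level for 3 of 4 genes, with a summed level of 4197 to 4803 CPM in DMSO and 1791 to 4140 CPM in exposed cells, and their part in the results was not tested.

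Per kilobase of the longest annotated transcript, the level of the 35 genes spanned from 321 CPM for Psap, which encodes the precursor of the saposins that help enzymes reach lipids, to 1.60 CPM for Tfeb. The next highest were Lamp1 at 209 CPM and Lamp2 at 187 CPM per kilobase, which encode the main glycoproteins of the lysosomal membrane. Grn, which encodes progranulin, was at 143 CPM per kilobase. Among the pump genes, levels ran from 12.3 CPM for Atp6v1h to 131 CPM for Atp6ap1 per kilobase, and among the autophagy genes Sqstm1, the receptor p62 that brings ubiquitinated cargo, had 81.6 CPM per kilobase. The median GC content of the longest transcripts was 51.6% over the 35 genes and 49.3% over all genes tested, and 24 of the 35 lay above the latter.

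Promoters were examined because TFEB acts through E-boxes. RefSeq windows of GRCm38.p6 that run from 250 bases before to 50 bases after a start were matched for 30 of the 35 genes. The E-box CACGTG, searched on both strands, was in 11 of them (36.7%), against 11.9% of the 9544 tested genes with a window and 7.15% of all 32851 windows. The longer GTCACGTG, which contains CACGTG and was also searched as CACGTGAC, was in 8 (26.7%), namely Lamp1, Mcoln1, Ctsa, Ctsd, Gla, Glb1, Naglu and Atp6v0d1, against 4.97% of tested genes and 2.25% of all windows. A missing match says only that these letters are not in the window. The stretches below are shown because Naglu, called lower at high pyraclostrobin, and Lamp1, higher there without a call, carry the same letters, as do Ctsd, which ranged from 136 to 288 CPM over picoxystrobin, and Gla, which stayed between 17.3 and 23.8 CPM in all libraries. Capitals mark the match to GTCACGTG or CACGTGAC only, and each stretch reads 5′ to 3′ on the strand of its gene. The Lamp1 stretch ends in a further CACGTG, which is left in lower case. They lie at chr11:101070008-101070037 on the plus strand (Naglu), chr8:13159122-13159151 on the plus strand (Lamp1), chr7:142387907-142387936 on the minus strand (Ctsd) and chrX:134601183-134601212 on the minus strand (Gla).
Naglu: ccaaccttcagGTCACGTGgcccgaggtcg
Lamp1: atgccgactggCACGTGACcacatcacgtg
Ctsd: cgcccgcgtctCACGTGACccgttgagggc
Gla: gtgagatctcgGTCACGTGagcaactctcg
A match is a description of the sequence and no evidence that a factor bound there.

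**Figure D1:**
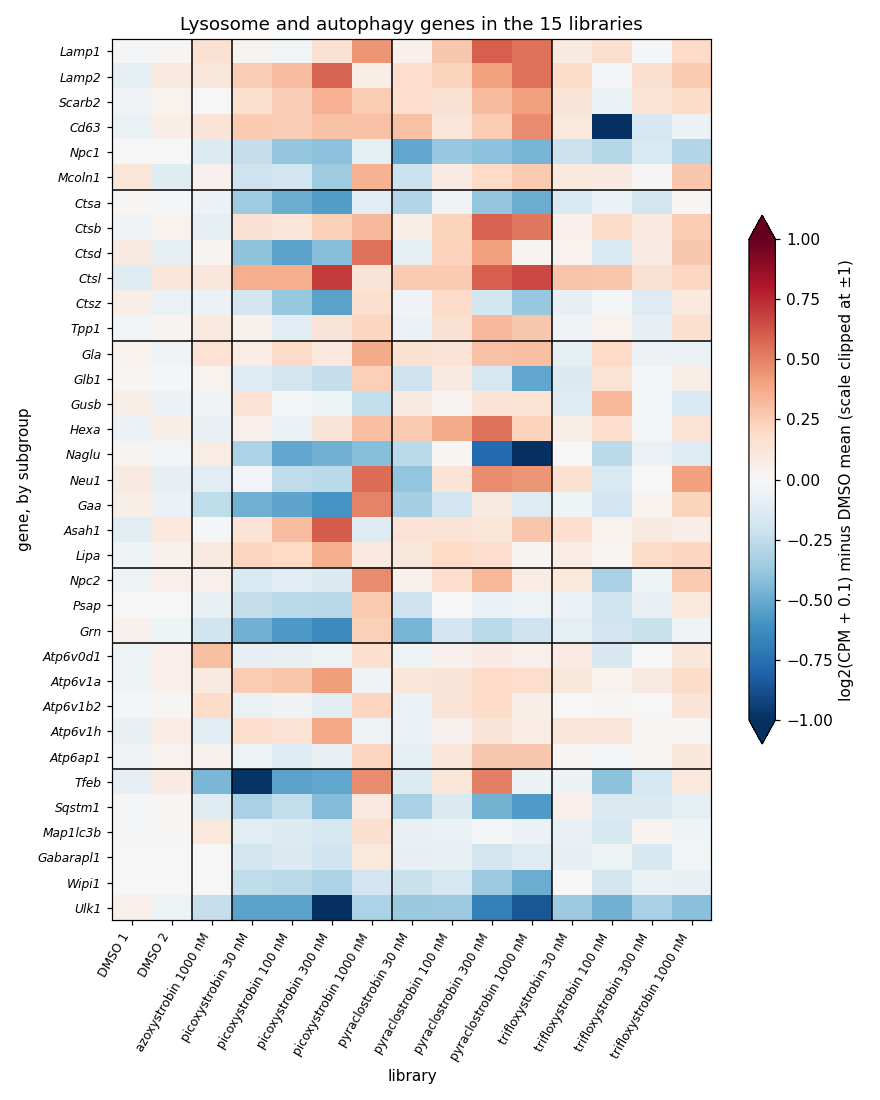
Each row is 1 of the 35 genes, grouped as membrane proteins, proteases, glycosidases and lipid hydrolases, soluble cofactors, proton pump, and autophagy, and each column is 1 library. Colour is log2(CPM + 0.1) minus the mean of the DMSO libraries, red for higher and blue for lower, clipped at ±1; Ulk1 and Npc1 are lower than both DMSO libraries in all 13 exposed libraries, and the picoxystrobin column at 1000 nM is red in many rows where the other 3 picoxystrobin columns are blue.

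Pyraclostrobin was the compound with calls among these genes. Against DMSO, Npc1, which encodes the membrane protein that exports cholesterol from the lysosome, was lower, and 0 of the 35 genes were higher, by edgeR's quasi-likelihood test after Benjamini-Hochberg adjustment over all genes. This is 2.86% of the 35 genes lower, beside 1.02% of all genes lower and 0.293% higher. Without a call, Lamp1, Lamp2, Scarb2, Ctsb, Ctsl and Hexa were higher and Ulk1, Wipi1, Sqstm1, Naglu and Ctsa lower at an unadjusted p under 0.05, which together with Npc1 makes 6 of 35 (17.1%) in each direction, against 11.1% of all genes higher and 12.1% lower. The median log2 change was 0.10 over the 35 genes and 0.01 over all genes.

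Npc1 was at 114.5 and 115.0 CPM in the DMSO libraries and at 79.9, 88.4, 86.3 and 82.9 CPM with pyraclostrobin at 30, 100, 300 and 1000 nM. The levels were 97.3, 88.0, 86.3 and 107.6 CPM over the same concentrations of picoxystrobin, 98.96, 94.0, 103 and 93.7 CPM for trifloxystrobin, and 104.5 CPM for azoxystrobin at 1000 nM. All 13 exposed libraries were below both DMSO libraries, as for 2.98% of all genes. The pyraclostrobin libraries lay below DMSO without overlap, as for 18.8% of all genes, and below trifloxystrobin, as for 5.91%. Against DMSO, the log2 fold change in pyraclostrobin was −0.44 ± 0.094 (SE; 4 against 2 libraries; edgeR adjusted p = 0.0423). It was −0.28 ± 0.094 for picoxystrobin (adjusted p = 0.205) and −0.24 ± 0.094 for trifloxystrobin (adjusted p = 1.0), and these comparisons share the same DMSO libraries. High and low pyraclostrobin did not differ beyond the spread, at a log2 difference of 0.01 (95% interval −0.24 to 0.26). Npc1 overlaps Rmc1 and Gm15956 on the opposite strand, and whether the counting used the strand is not given in the sources used here. In bulk RNA, fewer cells of a type and less RNA per cell cannot be told apart, here as for the other genes.

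The call of Npc1 depended on single libraries while its size did not. Of 15 fits that each left out 1 library, 6 kept the call and all gave a log2 fold change of −0.47 to −0.42. The edgeR adjusted p was 0.373 without DMSO replicate 1, 0.287 without DMSO replicate 2, 0.128 without pyraclostrobin at 300 nM and 0.105 without pyraclostrobin at 1000 nM. It was 0.0712 and 0.0642 without picoxystrobin at 30 and 100 nM, and 0.0582, 0.069 and 0.0621 without trifloxystrobin at 30, 300 and 1000 nM. The number of the 35 genes called in pyraclostrobin against DMSO was 0 in each of these 9 fits, 2 without picoxystrobin at 300 nM (Npc1 and Ulk1) or pyraclostrobin at 30 nM (Npc1 and Ctsb), 3 without pyraclostrobin at 100 nM (Npc1, Naglu and Wipi1) and 6 without picoxystrobin at 1000 nM. Over all genes, edgeR called 184 with all libraries, 0 to 45 in the 9 fits without a call among the 35, and 293, 559, 953 and 1204 without picoxystrobin at 300 nM, pyraclostrobin at 30 nM, pyraclostrobin at 100 nM and picoxystrobin at 1000 nM.

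Within pyraclostrobin, the 300 and 1000 nM libraries were set against the 30 and 100 nM libraries, which needs no control. Here 1 of the 35 genes rose, Ctsb, which encodes the protease cathepsin B, and 1 fell, Naglu, which encodes an enzyme of heparan sulfate breakdown. Each is 2.86% of the 35 genes, beside 3.47% of all genes higher and 3.35% lower. At an unadjusted p under 0.05 there were 6 higher and 2 lower, against 11.6% and 11.2% of all genes. The median log2 difference was 0.09 over the 35 genes and −0.01 over all genes, and 26 of the 35 were on the higher side. The 2 libraries at high concentration lay above both at low concentration for 16 of the 35 genes (45.7%, against 31.5% of all genes) and below for 7 (20.0%, against 32.2%).

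By role, all 6 membrane proteins were on the higher side at high pyraclostrobin, from a log2 difference of 0.01 for Npc1 to 0.41 for Lamp1. So were 4 of 6 proteases, from −0.36 for Ctsz to 0.41 for Ctsb, and 6 of 9 glycosidases and lipid hydrolases, from −0.78 for Naglu to 0.58 for Neu1. The 3 soluble cofactors lay between 0.05 and 0.10 and the 5 pump genes between 0.06 and 0.25. Of the autophagy genes, 2 of 6 were on the higher side, from −0.40 for Ulk1 to 0.26 for Tfeb.

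Naglu was at 24.5 and 23.4 CPM in DMSO and at 19.9, 24.1, 13.97 and 11.5 CPM over the rising pyraclostrobin concentrations. With picoxystrobin it was at 19.2, 16.7, 17.1 and 17.9 CPM, with trifloxystrobin at 23.9, 20.0, 23.1 and 21.9 CPM, and with azoxystrobin at 25.3 CPM. The pyraclostrobin libraries at 300 and 1000 nM were the lowest of the 15, and the 4 picoxystrobin libraries were below DMSO without a trend. Picoxystrobin lay below DMSO without overlap for 13.4% of all genes. The GC content of Naglu was 59.8%, and its log2 change in picoxystrobin against DMSO was −0.44. It was −0.05 without picoxystrobin at 1000 nM and with a correction for GC content and transcript length. Between high and low pyraclostrobin the log2 fold change was −0.78 ± 0.15 (SE; 2 against 2 libraries; edgeR adjusted p = 0.0131). The call was kept in 12 of 15 fits that left out 1 library and lost without pyraclostrobin at 30 nM (adjusted p = 0.0607), 100 nM (0.125) or 1000 nM (0.198). In a fit of a straight slope within the compound, the edgeR adjusted p for 1000 against 30 nM was 0.0913.

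Ctsb was at 199 and 209 CPM in DMSO and at 214, 238, 306.5 and 294 CPM over the rising pyraclostrobin concentrations. It was at 227, 222, 241 and 255.5 CPM with picoxystrobin, at 211.5, 231.5, 218 and 243 CPM with trifloxystrobin, and at 192 CPM with azoxystrobin. All 12 libraries of the 3 compounds were above both DMSO libraries, and azoxystrobin was below them. Each compound taken alone, 11.6% of all genes were above DMSO in this way for picoxystrobin, 18.0% for pyraclostrobin and 7.55% for trifloxystrobin. Between high and low pyraclostrobin the log2 fold change was 0.41 ± 0.097 (SE; 2 against 2 libraries; edgeR adjusted p = 0.0283), and against DMSO it was 0.37 ± 0.13 (adjusted p = 0.118). The first call was kept in 7 of 15 fits that left out 1 library. It was lost without any of the pyraclostrobin libraries (edgeR adjusted p = 0.219, 0.111, 0.125 and 0.201 in order of concentration), without DMSO replicate 2 (0.0501), without picoxystrobin at 30 nM (0.0534) or 100 nM (0.0505), and with a straight slope (0.096). Ctsb overlaps Fdft1, a gene of cholesterol synthesis, on the opposite strand.

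Over the 35 genes, high against low pyraclostrobin gave 0 calls without pyraclostrobin at 30, 100 or 1000 nM, and 1 call (Naglu) without DMSO replicate 2, picoxystrobin at 30 or 100 nM or pyraclostrobin at 300 nM, where edgeR called 17 to 31 and 421 to 626 of all genes, against 486 higher and 469 lower with all libraries. The ranges of 17 to 31 and 421 to 626 count both directions together, while 486 and 469 count a single direction each. The comparison gave 10 calls without picoxystrobin at 300 nM and 11 without picoxystrobin at 1000 nM. All libraries enter the estimate of the spread, so a picoxystrobin library bears on this comparison through that estimate and the normalization. Of the 11, 6 were higher at high concentrations (Atp6ap1, Ctsb, Ctsl, Lamp1, Lamp2 and Neu1), beside 11.1% of all genes, and 5 were lower (Ctsa, Ctsz, Naglu, Sqstm1 and Ulk1), beside 10.7%. Of the 10, 6 were higher, beside 11.4% of all genes, and 4 lower, beside 10.1%.

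**Figure D2:**
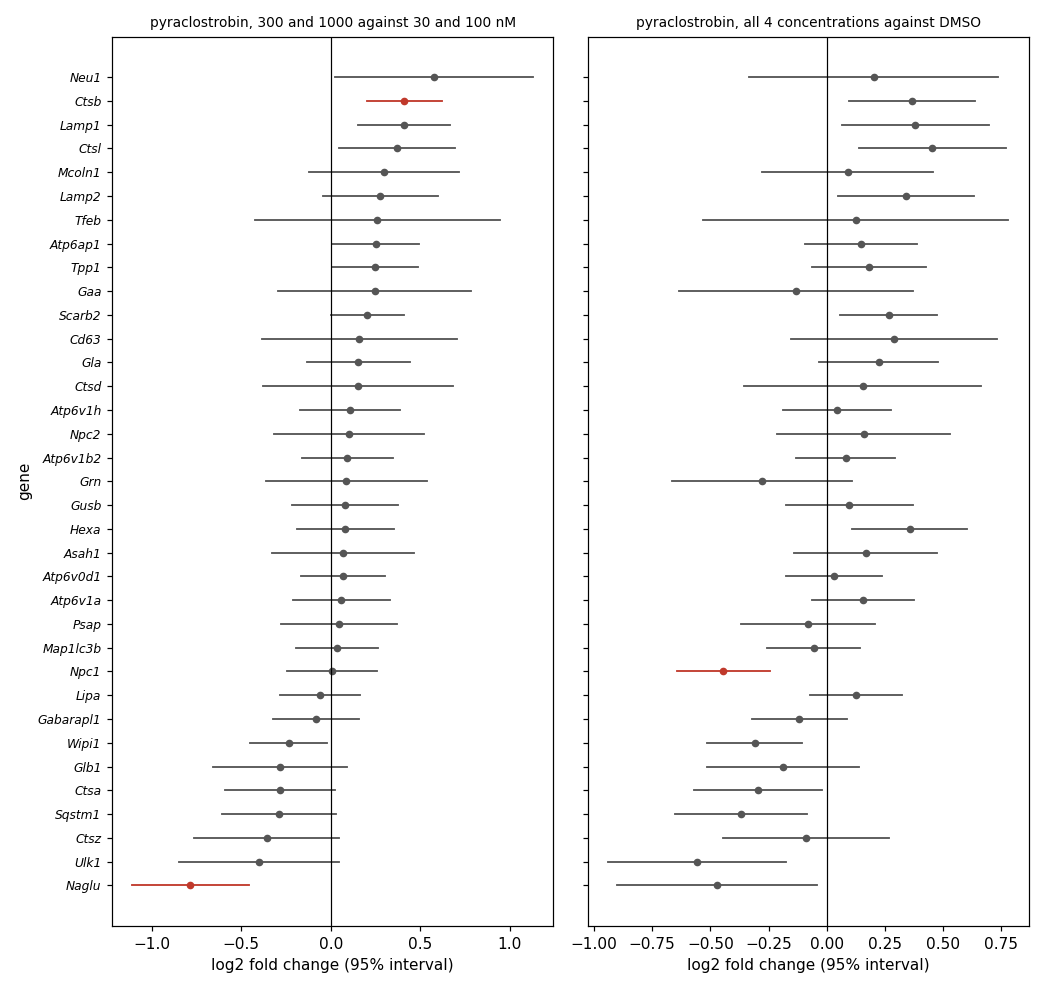
Log2 fold changes of the 35 genes with 95% intervals from edgeR, for pyraclostrobin at 300 and 1000 nM against 30 and 100 nM (left) and for its 4 concentrations against DMSO (right), ordered by the left panel. Red marks an adjusted p under 0.05; these are Naglu and Ctsb on the left and Npc1 on the right, and most intervals cross 0.

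The membrane glycoprotein Lamp1 was at 405.5 and 411 CPM in DMSO and at 422, 492, 618 and 594 CPM over the rising pyraclostrobin concentrations. Levels were 417, 400.5, 454.5 and 554 CPM with picoxystrobin, 435, 457, 402 and 466.5 CPM with trifloxystrobin and 455 CPM with azoxystrobin. The pyraclostrobin libraries at 300 and 1000 nM were the highest of all, followed by picoxystrobin at 1000 nM. Lamp1 overlaps Grtp1 on the opposite strand. Between high and low pyraclostrobin the log2 difference was 0.41 ± 0.12 (SE; edgeR adjusted p = 0.0576), just outside the threshold. Of 15 fits that left out 1 library, 2 called it, and the edgeR adjusted p was 0.0577 to 0.344 in the other 13, with log2 differences of 0.30 to 0.52 over all 15. The adjusted p was 0.023 with DESeq2 and 0.0118 with a correction for GC content and transcript length; leaving out picoxystrobin at 300 nM gave 0.00425 and leaving out picoxystrobin at 1000 nM gave 0.00461, and a straight slope gave 0.12. Lamp2, with the same direction, was at 538 and 617 CPM in DMSO and increased from 651 CPM at 30 nM to 674, 763 and 839 CPM of pyraclostrobin, at a log2 difference of 0.28 (edgeR unadjusted 95% interval −0.05 to 0.60). Lamp2, Mcoln1, a calcium channel of the lysosome, and Atp6ap1, an accessory pump protein, were the 3 of 35 genes whose level was higher at each step of pyraclostrobin (8.57%, against 8.14% of all genes), and 0 were lower at each step, against 9.14%.

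Among the glycosidases, Neu1, the lysosomal sialidase, was at 19.3 and 17.1 CPM in DMSO and at 13.8, 19.8, 25.1 and 24.7 CPM with rising pyraclostrobin. It was at 17.8, 15.2, 15 and 26.8 CPM with picoxystrobin and at 20.1, 16.3, 18.2 and 24.1 CPM with trifloxystrobin. The library at 1000 nM was the highest of its compound for picoxystrobin and trifloxystrobin, and azoxystrobin, at 16.8 CPM, was below DMSO. The log2 difference between high and low pyraclostrobin was 0.58 ± 0.25 (SE; edgeR adjusted p = 0.199).

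**Figure D3:**
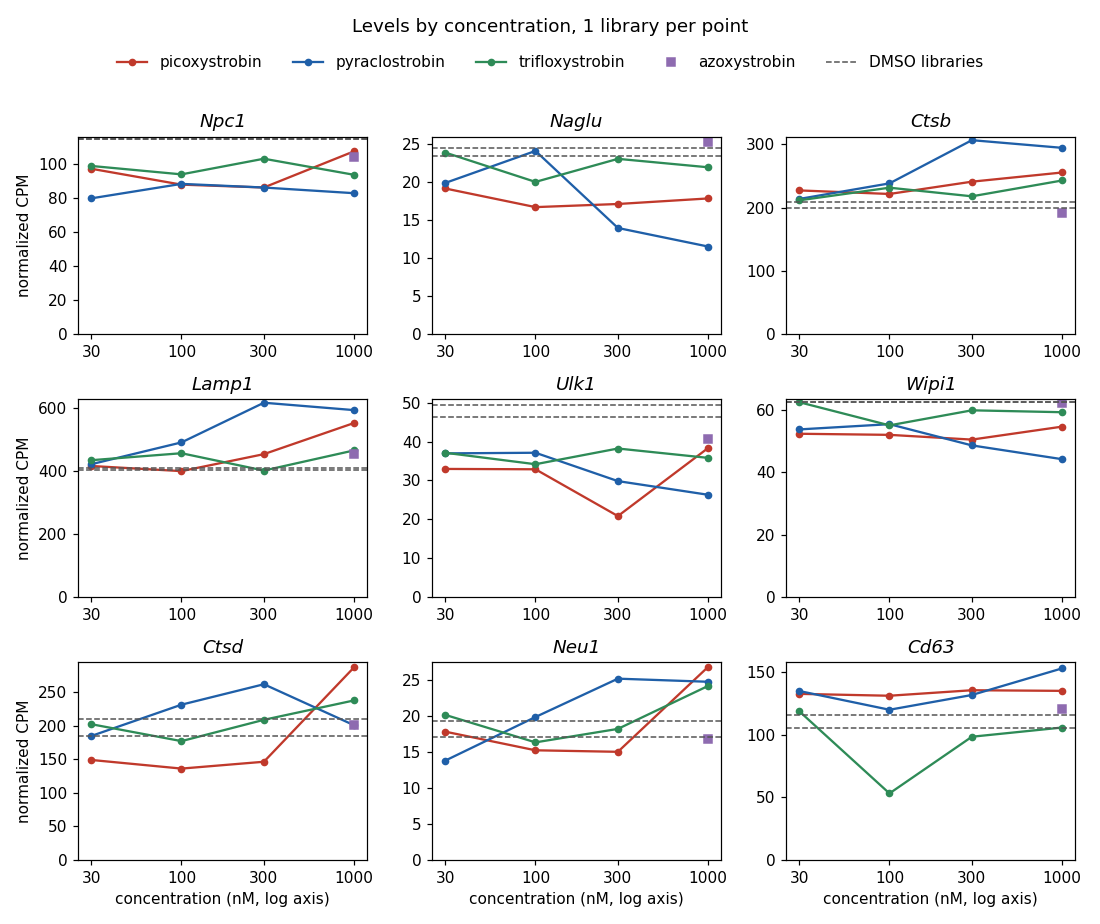
Normalized CPM of 9 of the genes by concentration (nM, log axis), 1 library per point, with the DMSO libraries as dashed lines. Npc1 and Ulk1 stay under the dashed lines throughout, Ctsb and Lamp1 are highest for pyraclostrobin at 300 nM, Naglu is lowest for pyraclostrobin at 1000 nM, and Ctsd and Neu1 jump at 1000 nM of picoxystrobin.

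Most of the 6 autophagy genes were on the lower side against DMSO. All 6 were below 0 in the log2 change of picoxystrobin and 5 of 6 in that of pyraclostrobin, with medians of −0.23 and −0.21, beside 0.01 and 0.01 for all genes; 0 of the 6 passed the test. Over a list of 40 further autophagy genes the medians were 0.00 for picoxystrobin and −0.04 for pyraclostrobin, and 0 were called. By library, the median of the 6 autophagy genes was below 0 in every exposed library but picoxystrobin at 1000 nM. It was −0.29, −0.26, −0.37 and 0.10 for rising picoxystrobin, −0.18, −0.11, −0.28 and −0.32 for pyraclostrobin, and −0.07, −0.17, −0.15 and −0.06 for trifloxystrobin. The GC content of the 6 was 51.5% to 63.2%, above the median of 49.3% over all genes. A further fit left out picoxystrobin at 1000 nM and corrected for GC content and transcript length. There the picoxystrobin changes ran from −0.33 for Ulk1 to 0.00 for Map1lc3b, with −0.15 for Wipi1 and −0.12 for Sqstm1, none of them called. The part of base composition was not tested.

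Ulk1, the kinase that starts autophagy, was at 49.4 and 46.3 CPM in DMSO and at 37.0, 37.1, 29.8 and 26.3 CPM with rising pyraclostrobin. With picoxystrobin it was at 33.0, 32.9, 20.8 and 38.4 CPM, with trifloxystrobin at 37.1, 34.2, 38.2 and 35.8 CPM, and with azoxystrobin at 40.7 CPM. As for Npc1, all 13 exposed libraries were below both DMSO libraries, a pattern shared by 2.98% of all genes; 0 of the 35 genes showed the opposite, against 2.21%. The log2 change was −0.61 ± 0.18 for picoxystrobin (SE; edgeR adjusted p = 0.172), −0.56 ± 0.18 for pyraclostrobin (adjusted p = 0.103) and −0.40 ± 0.18 for trifloxystrobin (adjusted p = 1.0). Without picoxystrobin at 1000 nM, the value for picoxystrobin was −0.73, with an edgeR adjusted p of 0.0117, the 1 of 15 fits leaving out a library that called it (adjusted p up to 0.888 in the others). When GC content and transcript length were corrected for in that fit, it was −0.33, with an edgeR adjusted p of 0.194.

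Wipi1, which binds the forming autophagic membrane, was at 62.4 and 62.7 CPM in DMSO, 62.3 CPM with azoxystrobin and 53.7, 55.4, 48.6 and 44.2 CPM with rising pyraclostrobin. It was at 52.3, 51.98, 50.5 and 54.6 CPM with picoxystrobin and 62.5, 55.02, 59.8 and 59.2 CPM with trifloxystrobin. All pyraclostrobin and picoxystrobin libraries were below DMSO. Taken alone, pyraclostrobin lay below DMSO in this way for 18.8% of all genes and picoxystrobin for 13.4%. The log2 change was −0.31 ± 0.096 for pyraclostrobin (SE; edgeR adjusted p = 0.0952) and −0.26 ± 0.096 for picoxystrobin (adjusted p = 0.228). For pyraclostrobin it passed the threshold without pyraclostrobin at 100 nM (edgeR adjusted p = 0.0442), without picoxystrobin at 1000 nM (0.0443) and with DESeq2 (0.0397). In the other 13 of 15 fits that left out 1 library it was not called, with adjusted p up to 0.437.

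Sqstm1 was at 245 and 249 CPM in DMSO and at 197, 224, 178 and 166 CPM with rising pyraclostrobin. Sqstm1 was thus below DMSO in every pyraclostrobin library, as were 18.8% of all genes. It was at 197, 208, 183 and 263 CPM with picoxystrobin, at 255, 224, 223 and 231 CPM with trifloxystrobin and at 227 CPM with azoxystrobin, so that picoxystrobin at 1000 nM was the highest of all. The log2 change for pyraclostrobin was −0.37 ± 0.13 (SE; edgeR adjusted p = 0.129), and without picoxystrobin at 1000 nM the edgeR adjusted p was 0.0397, the 1 of 15 such fits that called it (up to 0.462 in the others). Sqstm1 overlaps Mrnip on the opposite strand. Map1lc3b, the LC3B protein that coats the autophagic membrane, was at 137 and 139 CPM in DMSO and at 131, 131, 136 and 133 CPM with rising pyraclostrobin. Its levels were 128, 125.5, 123 and 154 CPM with picoxystrobin, 131, 123.5, 142 and 134 CPM with trifloxystrobin and 148 CPM with azoxystrobin. Map1lc3b was thus below DMSO in every pyraclostrobin library, as were 18.8% of all genes, and highest in picoxystrobin at 1000 nM. Against DMSO its log2 change in pyraclostrobin was −0.06 (95% interval −0.26 to 0.14). It overlaps Gm20388 on the same strand and Zcchc14 on the opposite strand.

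Tfeb, the regulator, was low in all libraries. It was at 3.77 and 4.23 CPM in DMSO, at 1.97, 2.73, 2.76 and 5.59 CPM with rising picoxystrobin, at 3.62, 4.34, 5.69 and 3.82 CPM with pyraclostrobin, at 3.83, 2.99, 3.51 and 4.30 CPM with trifloxystrobin and at 2.88 CPM with azoxystrobin. The 3 lower picoxystrobin concentrations gave the lowest values, and picoxystrobin at 1000 nM and pyraclostrobin at 300 nM the highest. No comparison with DMSO passed the test (pyraclostrobin log2 0.13, 95% interval −0.53 to 0.78). Between high and low picoxystrobin the log2 difference was 0.81 (edgeR adjusted p = 0.951). It was 0.21 without picoxystrobin at 1000 nM (edgeR adjusted p = 0.819) and 1.24 without picoxystrobin at 300 nM (0.00705), where the 1000 nM library alone is the high level; the latter was the 1 of 15 fits leaving out a library that called Tfeb.

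**Figure D4:**
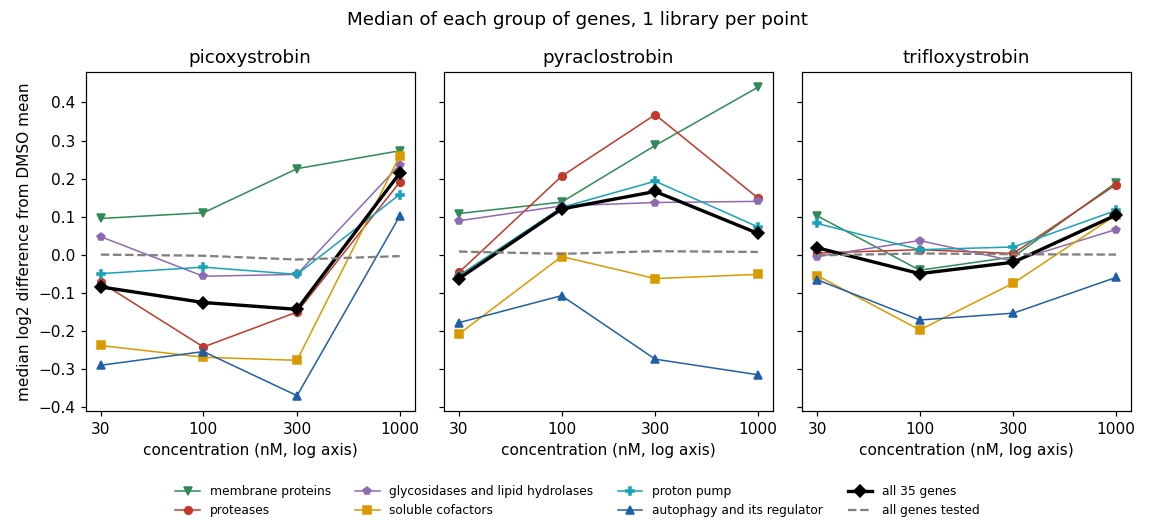
Median log2 difference from the DMSO mean by concentration (nM, log axis) for each group of genes, for all 35 (black) and for all genes tested (dashed), 1 library per point. For pyraclostrobin the membrane proteins end at 0.44 and the autophagy genes at −0.32, and for picoxystrobin every group is above 0 at 1000 nM.

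For picoxystrobin, 0 of the 35 genes were called against DMSO by edgeR's quasi-likelihood test or DESeq2, beside 0.00714% of all genes called higher and 0.0214% lower, and 5 in each direction had an unadjusted p under 0.05 (7.7% and 9.08% of all genes). The 1000 nM library differed from the others. Its median and theirs went opposite ways, as the median over the 35 genes was −0.09, −0.13 and −0.14 at 30, 100 and 300 nM and 0.21 at 1000 nM, while over all genes it was between −0.01 and 0.00 in each. For 13 of the 35 genes picoxystrobin at 1000 nM was the highest library of the 15, and for 10 picoxystrobin at 300 nM was the lowest. How many of all genes had their extremes there was not counted. Over all genes, the log2 differences from DMSO also spread more widely in these libraries. Their SD was 0.439 at 300 nM and 0.36 at 1000 nM, beside 0.311 and 0.316 at 30 and 100 nM.

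Ctsd, the aspartic protease cathepsin D, was at 210 and 185 CPM in DMSO and at 149, 136, 146.5 and 288 CPM with rising picoxystrobin. It was at 185, 232, 262 and 201 CPM with pyraclostrobin, at 203, 177, 209 and 238 CPM with trifloxystrobin and at 201 CPM with azoxystrobin. Picoxystrobin thus gave both the 3 lowest values and the highest. Gaa, the enzyme that breaks down glycogen, was at 70.4 and 64.6 CPM in DMSO and at 48.4, 46.7, 44.5 and 95.01 CPM with picoxystrobin, and Grn at 395 and 373.5 CPM and at 275, 258.5, 248 and 455 CPM. Ctsl, the protease cathepsin L, went the other way, with 522 and 620 CPM in DMSO and 734, 732, 924 and 621 CPM with picoxystrobin. The log2 change of Ctsd against DMSO was −0.13 (95% interval −0.64 to 0.37). It overlaps Gm49369 on the same strand.

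Without picoxystrobin at 1000 nM, edgeR's quasi-likelihood test called 13 of the 35 genes for picoxystrobin against DMSO. Of these, 5 were higher (Asah1, Atp6v1a, Ctsl, Lamp2 and Lipa), which is 14.3% of the 35 beside 9.15% of all genes, and 8 were lower (Ctsa, Ctsd, Gaa, Grn, Npc1, Psap, Sqstm1 and Ulk1), which is 22.9% beside 10.0%. The largest were Ulk1 at −0.73, Grn at −0.56 and Gaa at −0.54, and Ctsl at 0.48 and Lamp2 at 0.38 on the log2 scale. The differences moved with base composition. Across the 35 genes, Pearson's r between the log2 difference from DMSO and the GC content was −0.73, −0.751 and −0.745 at 30, 100 and 300 nM and 0.186 at 1000 nM, and across all genes it was −0.527, −0.601, −0.667 and 0.164. These are descriptions across genes that share a library and its depth. When a correction for GC content and transcript length was added, chosen after the data were seen, 1 of the 13 remained, Npc1, beside 0.979% of all genes higher and 0.722% lower. In pyraclostrobin the same r over the 35 genes was −0.4, −0.247, −0.283 and −0.447, and DMSO replicates 1 and 2, which mirror each other around their mean, gave 0.45 and −0.45.

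**Figure D5:**
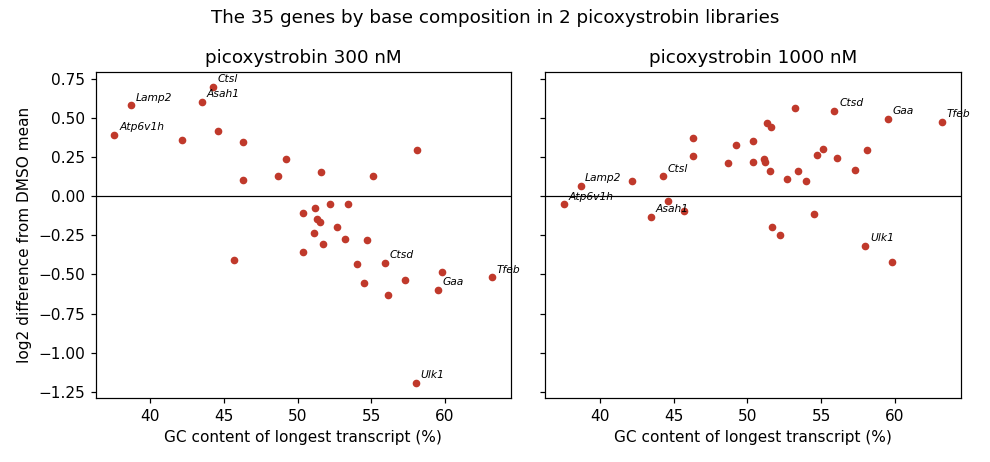
Log2 difference from the DMSO mean against the GC content (%) of the longest transcript for the 35 genes, 1 point per gene, in picoxystrobin at 300 nM (left) and 1000 nM (right). On the left, genes of low GC such as Lamp2, Ctsl and Asah1 are above 0 and those of high GC such as Gaa, Tfeb and Ulk1 below (r −0.745); on the right the points show no such slope (r 0.186).

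With the correction and without that library, pyraclostrobin against DMSO gave 3 calls among the 35 genes (Ctsl and Hexa higher, beside 1.92% of all genes, and Npc1 lower, beside 2.57%), where the library left out alone gave 6 (Ctsl, Hexa, Npc1, Sqstm1, Ulk1 and Wipi1), beside 3.36% of all genes higher and 5.25% lower. High against low pyraclostrobin gave 10 calls in place of 11 (6 higher and 4 lower, beside 10.9% and 11.4% of all genes). With the correction alone, Ctsb and Lamp1 were called higher and Naglu lower at high pyraclostrobin, beside 5.61% and 6.04% of all genes. Ctsb and Naglu at high pyraclostrobin were thus called with and without the correction.

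High against low picoxystrobin gave 0 calls over all genes (0.0% in either direction) by edgeR's quasi-likelihood test, and DESeq2 also called 0 of the 35, with 4 of the 35 higher at an unadjusted p under 0.05 (Lamp1, Ctsd, Tfeb and Gaa; 2.68% of all genes) and 0 lower. Of the 35 genes, 31 were on the higher side, with a median log2 difference of 0.13. With a correction for GC content and transcript length, 29 were on the higher side, with a median of 0.107 beside 0.002 for all genes. With that correction and without picoxystrobin at 1000 nM, 24 were, with a median of 0.049 beside −0.001. In the uncorrected fit the pattern depended on the 1000 nM library. Without it, 16 of the 35 were on the higher side, the median was −0.02, and 4 were higher and 1 lower at an unadjusted p under 0.05, beside 7.3% and 5.31% of all genes. Without picoxystrobin at 300 nM, which leaves the 1000 nM library alone as the high level, 16 were called, 14 of them higher (beside 15.5% of all genes) and 2 lower (beside 14.1%), with the lone library assumed to vary like the other groups.

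Azoxystrobin, with 1 library, and trifloxystrobin gave 0 calls against DMSO by edgeR's quasi-likelihood test and by DESeq2 among the 35 genes, and edgeR called 0.0% of all genes. At an unadjusted p under 0.05 there was 1 gene higher for azoxystrobin (the pump subunit Atp6v0d1, 138 CPM against 108 and 116 CPM in DMSO), beside 1.49% of all genes, and there were 2 lower for trifloxystrobin (Npc1 and Ulk1), beside 0.935%. The median log2 change was 0.00 for azoxystrobin and 0.02 for trifloxystrobin. High against low trifloxystrobin also gave 0 calls, with 0 of the 35 genes at an unadjusted p under 0.05 and 0.0% of all genes called.

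None of the 5 proton pump genes passed the test in a comparison with all 15 libraries. Atp6v1h, a subunit of the cytosolic part, was at 53.3 and 59.4 CPM in DMSO and at 54.2, 57.9, 61.5 and 59.2 CPM with rising pyraclostrobin. It was at 63.6, 62.0, 73.8 and 54.2 CPM with picoxystrobin, at 61.2, 61.3, 57.1 and 56.9 CPM with trifloxystrobin and at 52.3 CPM with azoxystrobin. Picoxystrobin at 300 nM was the highest, the pyraclostrobin libraries overlapped DMSO, and the log2 change in pyraclostrobin was 0.05 (95% interval −0.19 to 0.28). Over the 5 pump genes, the log2 change in pyraclostrobin against DMSO ran from 0.03 for Atp6v0d1 to 0.15 for Atp6v1a, and 0 of 5 were called. Atp6v1h overlaps Rgs20 on the opposite strand.

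Over the 12 libraries of the 3 compounds with 4 concentrations, a common slope on log10 concentration was above 0 for 27 of the 35 genes, with a median of 0.08 log2 units per 10-fold concentration, beside 0.00 for all genes. It was above 0 at an unadjusted p under 0.05 for 11 genes (Neu1, Ctsb, Lamp1, Gaa, Mcoln1, Atp6ap1, Tpp1, Ctsd, Psap, Tfeb and Grn) and below for 0, against 8.95% and 5.66% of all genes. None of the 35 was called by edgeR's quasi-likelihood test or by DESeq2, and edgeR called 0.0% of all genes. The steepest was Tfeb at 0.40 and then Neu1 at 0.37 (edgeR adjusted p = 0.29 and 0.2). Without picoxystrobin at 1000 nM, 7 genes were above 0 and 3 below at an unadjusted p under 0.05, beside 7.76% and 6.54% of all genes. A difference of slopes between the compounds was called for 0 of the 35 genes and 0.0% of all genes, and 0 of the 35 had an unadjusted p under 0.05.

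The compounds are related in structure. They share the strobilurin pharmacophore, which is a methoxyacrylate in picoxystrobin, a methoxycarbamate in pyraclostrobin and an oximinoacetate in trifloxystrobin. All 3 pairs were compared at the 4 matched concentrations, with adjustment over all genes and the 3 pairs. edgeR's quasi-likelihood test and DESeq2 called 0 of the 35 genes in each pair, and edgeR called 0.0% to 0.00714% of all genes in a direction. At an unadjusted p under 0.05 there was 1 gene between pyraclostrobin and picoxystrobin (Hexa, higher; 5.68% of all genes), 8 between pyraclostrobin and trifloxystrobin (4 higher and 4 lower, beside 8.37% and 8.74%) and 2 between picoxystrobin and trifloxystrobin (1 higher and 1 lower, beside 3.78% and 4.55%). Npc1 differed by −0.21 between pyraclostrobin and trifloxystrobin (95% interval −0.41 to −0.01; edgeR adjusted p = 0.392) and by −0.17 between pyraclostrobin and picoxystrobin (interval −0.37 to 0.03; adjusted p = 0.467). Naglu differed by −0.39 between pyraclostrobin and trifloxystrobin (interval −0.77 to −0.01; edgeR adjusted p = 0.396) and by −0.06 between pyraclostrobin and picoxystrobin (interval −0.44 to 0.32; adjusted p = 0.901). Intervals of this width do not show that the compounds act alike. Without picoxystrobin at 1000 nM, Ctsd was called higher in pyraclostrobin than in picoxystrobin, 1 of 35 genes beside 0.472% of all genes; 0 were called between picoxystrobin and trifloxystrobin, beside 0.679% of all genes higher and 0.836% lower.

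Among the 35 genes, the widest gap between compounds was in Cd63, a tetraspanin of late endosomes and lysosomes. It was at 106 and 116 CPM in DMSO, at 133, 131, 136 and 135 CPM with rising picoxystrobin and at 135, 120.0, 132 and 153 CPM with pyraclostrobin. With trifloxystrobin it was at 119, 53.1, 98.4 and 106 CPM, and with azoxystrobin at 121 CPM. All picoxystrobin and pyraclostrobin libraries were above all trifloxystrobin libraries and both DMSO libraries, and trifloxystrobin at 100 nM was the lowest of the 15. Libraries above DMSO without overlap were found for 11.6% of all genes with picoxystrobin and 18.0% with pyraclostrobin. The log2 difference was 0.56 between pyraclostrobin and trifloxystrobin (95% interval 0.23 to 0.88; edgeR adjusted p = 0.305) and 0.55 between picoxystrobin and trifloxystrobin (interval 0.22 to 0.88; adjusted p = 0.305). Across the fits that left out 1 library, the former ran from 0.36 to 0.69. Between pyraclostrobin and trifloxystrobin, groups that do not overlap were found for Cd63 and Hexa above (4.76% of all genes) and Npc1 below (5.91%). Between picoxystrobin and trifloxystrobin they were found for Cd63 above (2.25%) and Naglu and Wipi1 below (3.11%). Between pyraclostrobin and picoxystrobin they were found for 0 of the 35 genes, beside 1.89% of all genes above and 2.1% below.

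Lists of 128 further genes of the pathway (lysosomal, pump, autophagy and TFEB or mTORC1 control) were examined, and 118 of them were tested. Between high and low pyraclostrobin 4 were higher and 5 lower by edgeR's quasi-likelihood test, beside 3.47% and 3.35% of all genes, and against DMSO 1 was higher, the pump subunit Atp6v1d, beside 0.293%. Calcoco1, an autophagy receptor, was at 43.1, 41.6, 30.2 and 28.1 CPM with rising pyraclostrobin, beside 41.3 and 43.1 CPM in DMSO (a log2 difference of −0.54 between high and low; edgeR adjusted p = 0.0176). Aga, which cleaves sugars from asparagine, was at 50.1, 52.8, 84.8 and 97.0 CPM, beside 39.4 and 50.2 CPM in DMSO (0.82; edgeR adjusted p = 0.0186), and Galc, which degrades galactosylceramide, at 32.4, 32.7, 44.9 and 49.95 CPM, beside 31.3 and 32.3 CPM in DMSO (0.54; edgeR adjusted p = 0.0226).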

How the data were processed

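RNA was taken from C17.2α cells after 24 h. Per the labels, the authors used Lexogen's SENSE kit for total RNA and sequenced the libraries on a NextSeq500. The deposited values are raw read counts per gene, 1 table per library, which the authors obtained with htseq-count; the submitters' processing notes name Bowtie2 2.3.2.2 and the build mm10. The annotation and the strand setting of the counting are not given in the sources used here.

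Libraries were grouped by their labels. Of 16, 15 distinct ones were used. Genes with a mean of 1 CPM or more were normalized by TMM. edgeR 4.0.16 (R 4.3.3) gave quasi-likelihood F tests, with Benjamini-Hochberg adjustment over the 14004 genes and a threshold of 0.05. A separate level was fitted for each compound, or for its low and high concentrations, or a slope on log10 concentration, or compounds with concentration as a block. CPM values carry TMM factors, and log2 values per library had 0.1 CPM added. At the totals given, the spread between libraries (common dispersion 0.0164) limits precision more than counting does for all but the lowest genes. Positions, GC content and lengths came from GENCODE M21 and promoter windows from RefSeq.

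The 35 genes and the other lists were chosen with earlier results of these data known. Values per library are given for every gene called, filled to 8 by the smallest unadjusted p, for Tfeb, Lamp1, Ctsd, Atp6v1h, Sqstm1 and Map1lc3b, and for the 4 other pathway genes with the smallest adjusted p, of which 1 is not reported here. Lamp2, Gaa, Grn, Ctsl and Atp6v0d1 are named in addition after their values were seen. Alternatives were DESeq2 1.42.0, other normalization and filters, the study's minimum of 10 CPM, a correction for GC content and length (natural splines with 4 degrees of freedom, known for 99.46% of genes), separate fits, all 16 libraries, the shared counts as azoxystrobin, and each library left out in turn. Figures and tables used Python 3.11.15, pandas 2.3.3 and matplotlib 3.10.9. Samples of other experiments were not analysed here.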

Additional observations from a re-analysis of the deposited data

Results flagged for a closer look

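The named genes were checked for a library far from the others of its compound, over 39 groups of 4 libraries, with Dixon's test at the 95% level, by which chance alone marks about 1 in 20 groups. In 2 groups a library stood apart, and both times it was picoxystrobin at 1000 nM. Ctsd was at 287.7 CPM there, against 136 to 149 CPM in the other picoxystrobin libraries. Map1lc3b was at 153.8 CPM there, against 123 to 128 CPM. The concentrations of a compound are not copies of one another, so such a gap can hold a response to concentration. No difference of slopes between compounds passed the test.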

How the results depend on the processing

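With 1 library per concentration and 2 controls, the number of genes called depended on the processing. For the genes named closest to a call, each in its own comparison, no alternative reversed the direction. The median over the 35 genes for high against low picoxystrobin turned from 0.13 to −0.02 without picoxystrobin at 1000 nM. It was 0.049 when the correction for GC content and length was added to that fit. With that library left out and the correction, 2 changes of picoxystrobin against DMSO turned. The log2 change went from 0.17 to −0.07 for Atp6v1h and from −0.04 to 0.16 for Gusb. Of the counts of called genes that the alternatives gave for a comparison, 234 equalled the main count or were close to it, 25 were larger and 19 smaller. Many of the equal counts were 0 in both fits, and these counts do not score direction. Without a filter on low counts, 1 of the 35 genes was called for picoxystrobin against DMSO (Ulk1), 4 for pyraclostrobin, 2 for high against low picoxystrobin, 5 for high against low pyraclostrobin, 3 for the common slope, and 1 (Cd63) for each pair with trifloxystrobin; over all genes the same fits called 210, 1195, 108, 1547, 383, and 653 and 134. For pyraclostrobin against DMSO, DESeq2 called 2 (Npc1 and Wipi1), and the share of all genes that DESeq2 called is not given here. The correction for GC content and length called 2 (Hexa higher and Npc1 lower), beside 0.5% of all genes higher and 1.06% lower. Separate fits called 0, as did the shared counts taken as azoxystrobin. For Npc1 the edgeR adjusted p was 0.106 in the separate fit and 0.233 with the shared counts as azoxystrobin. A slope in place of high against low pyraclostrobin gave 0 calls. Without picoxystrobin at 1000 nM, 13, 6, 11 and 1 genes were called for picoxystrobin, pyraclostrobin, high against low pyraclostrobin and pyraclostrobin against picoxystrobin, and with the correction for GC content and length added 1, 3, 10 and 0. Leaving out 1 library at a time, calls ran from 0 to 13 for picoxystrobin, 0 to 6 for pyraclostrobin, 0 to 16 for high against low picoxystrobin, 0 to 11 for high against low pyraclostrobin and 0 to 1 for pyraclostrobin against picoxystrobin, and were 0 to 0 for the other comparisons. The cause of these shifts was not tested. No paired analysis was possible because the labels number only the DMSO libraries; concentration served as the block in the comparison of compounds.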
